A study of Mus musculus with 12 samples.

Results

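The narrower of the 2 interval sets scored in these mouse intestinal organoids, the 702 intervals called with MACS2, were a small part of the 167219 intervals in the deposited table, and the other 166517 were called with SEACR. All 702 were taken, and they were grouped by position: 18 at the start of chromosome 9 (start below 3.1 Mb), 2 on chromosome 2 between chr2:98662242 and chr2:98667330, 2 on chromosome 1 between chr1:24613319 and chr1:24615400, and 680 elsewhere. The values are peak scores of acetylated lysine 27 of histone H3 (H3K27ac) from CUT&RUN, in which an antibody-tethered nuclease releases the DNA next to a chromatin mark. Organoids grown from isolated crypts were wild type (WT) or Ptger4 knockout (KO), and each genotype received vehicle, arachidonic acid (AA) at 25 µM or prostaglandin E2 (PGE2) at 50 nM, with 2 libraries in each of the 6 groups. All groups shared growth in Matrigel in a medium with EGF, Noggin, R-spondin, N-acetyl-L-cysteine, B27, N2, the GSK3 inhibitor CHIR-99021 and the ROCK inhibitor Y-27632. The labels give day 3 as the time of each sample and 6 days as the length of treatment. A dimethyl form of PGE2 is named in the text on the series' design. The labels state neither how Ptger4 was deleted nor whether replicates are independent cultures or animals, so p-values measure only the spread between these libraries, which may be technical. Genes of epithelial identity carried stronger signal than genes of immune, fibroblast and endothelial cells: the strongest SEACR score within the gene had a median of 0.215 over 17 epithelial genes, all of which had such an interval, and of 0.113 over the 11 of 16 non-epithelial genes that had one. No MACS2 interval lay within 50 kb of Ptger4, so the knockout could not be checked in these intervals.

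H3K27ac marks active promoters and enhancers, and EP4, the product of Ptger4, is a receptor through which PGE2 raises cAMP. Mouse chromosomes carry their centromere at one end, beside long satellite repeats that a genome assembly represents by a few copies only, and the nuclear genome also holds copies of mitochondrial DNA. Reads from any such repeat can be placed on the few copies in the assembly, and the assembly positions on chromosomes 2 and 9 belong to regions that are often excluded from mouse chromatin profiles. How reads with several matching positions were treated is not given in the sources used here. At such positions the score therefore cannot be told apart from the number of copies in the genome, and at the mitochondrial-like positions not from reads of the mitochondrial genome itself.

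The intervals overlapped 151 RefSeq promoter windows (GRCm38.p6, 250 bases before to 50 after a transcription start) of 135 genes. The windows of Coq6, Zfp808 and Sprr2a3 are shown because the results return to these starts, and that of Tbck because it holds the element bound by the cAMP-responsive factor CREB. Capitals mark TGACGTCA (the cAMP response element), GGGCGG (the GC box) and CCAAT, on either strand, and each sequence runs 5′ to 3′ on the gene's own strand. The windows are chr12:84361718-84362017 (Coq6), chr13:62129640-62129939 (Zfp808), chr3:132683894-132684193 (Tbck) and chr3:92285054-92285353 (Sprr2a3), each on the plus strand.
Coq6: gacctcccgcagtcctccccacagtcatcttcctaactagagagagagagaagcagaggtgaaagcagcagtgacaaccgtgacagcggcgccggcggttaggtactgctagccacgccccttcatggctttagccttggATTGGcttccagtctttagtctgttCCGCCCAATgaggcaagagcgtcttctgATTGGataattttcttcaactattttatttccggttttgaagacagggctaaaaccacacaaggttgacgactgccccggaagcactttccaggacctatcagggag
Zfp808: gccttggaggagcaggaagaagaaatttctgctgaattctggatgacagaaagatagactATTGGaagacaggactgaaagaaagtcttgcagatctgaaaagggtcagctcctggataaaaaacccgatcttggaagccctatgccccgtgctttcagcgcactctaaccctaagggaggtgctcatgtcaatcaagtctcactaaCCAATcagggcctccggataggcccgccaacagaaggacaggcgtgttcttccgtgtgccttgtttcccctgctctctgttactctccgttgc
Tbck: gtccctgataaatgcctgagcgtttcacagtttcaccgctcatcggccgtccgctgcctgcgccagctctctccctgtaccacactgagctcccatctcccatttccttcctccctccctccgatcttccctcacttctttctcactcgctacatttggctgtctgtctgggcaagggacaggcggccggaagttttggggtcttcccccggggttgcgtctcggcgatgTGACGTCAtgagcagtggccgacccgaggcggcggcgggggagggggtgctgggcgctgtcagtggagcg
Sprr2a3: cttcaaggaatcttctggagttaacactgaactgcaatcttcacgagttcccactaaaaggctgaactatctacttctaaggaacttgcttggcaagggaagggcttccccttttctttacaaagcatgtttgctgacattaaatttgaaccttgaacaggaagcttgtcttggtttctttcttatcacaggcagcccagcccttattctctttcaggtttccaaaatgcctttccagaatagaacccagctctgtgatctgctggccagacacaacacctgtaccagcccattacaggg
Coq6 encodes an enzyme of coenzyme Q synthesis, and in its window a GC box on the other strand overlaps a CCAAT box, with further CCAAT boxes on either side. The Zfp808 window holds CCAAT on both strands, and the Tbck interval had a mean score of 0.613. Sprr2a3 belongs to a family of small proline-rich proteins of epithelia, and its window holds none of the 3 elements. TGACGTCA was present in 8 of the 151 windows (5.30%), against 2.69% of the 14059 windows overlapped by a SEACR interval and 1.79% of all 32851 windows. The GC box was present in 47.0% of the windows (49.5% and 35.7% in those references), CCAAT in 45.7% (38.2% and 37.4%), TATAAA in 8.61% (10.5% and 13.6%) and the E box CACGTG in 8.61% (8.93% and 7.15%). Median GC content was 57.7%, 57.0% and 52.7%. These shares are descriptions, and a gene with several starts has several windows.

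The MACS2 intervals were short and had higher scores than most SEACR intervals. Their median width was 241.5 bp (169 to 2401), and together they covered 213.742 kb, against 375.6 Mb for SEACR. Except for chr4:7873091-7873298, each lay wholly within a SEACR interval, and they fell on 638 different SEACR intervals. The score, averaged over the 12 libraries, had a median of 0.452 (quartiles 0.362 and 0.627), whereas the SEACR median was 0.118 and its 99th percentile 0.227. Only 12 MACS2 intervals lay below that percentile. Inside its own SEACR interval, the MACS2 interval scored higher in 694 cases, with a median ratio of 2.05. The SEACR intervals had a median width of 1759 bp. If the score is averaged per base, a short peak tends to score above the broad interval that holds it. These comparisons of score between the callers are therefore tied to width.

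Signal was very unevenly spread over the set. Mean scores ran from 0.146 to 1731, 587 intervals were under 1, 28 were over 10, and 11 were over 100. Signal was taken as score multiplied by width and summed over the set. This assumes a score averaged per base, which the sources used here do not state. By this measure, 95.1% came from the 28 intervals over 10 and 85.9% from the 11 over 100. Of the 28, 20 lay within 3.5 Mb of a chromosome's first base. More widely, 55 MACS2 intervals (7.83%) lay in that stretch, against 767 SEACR intervals (0.461%), and they were found on 11 chromosomes, with 18 on chromosome 9 and 15 on chromosome 11.

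**Figure D1:**
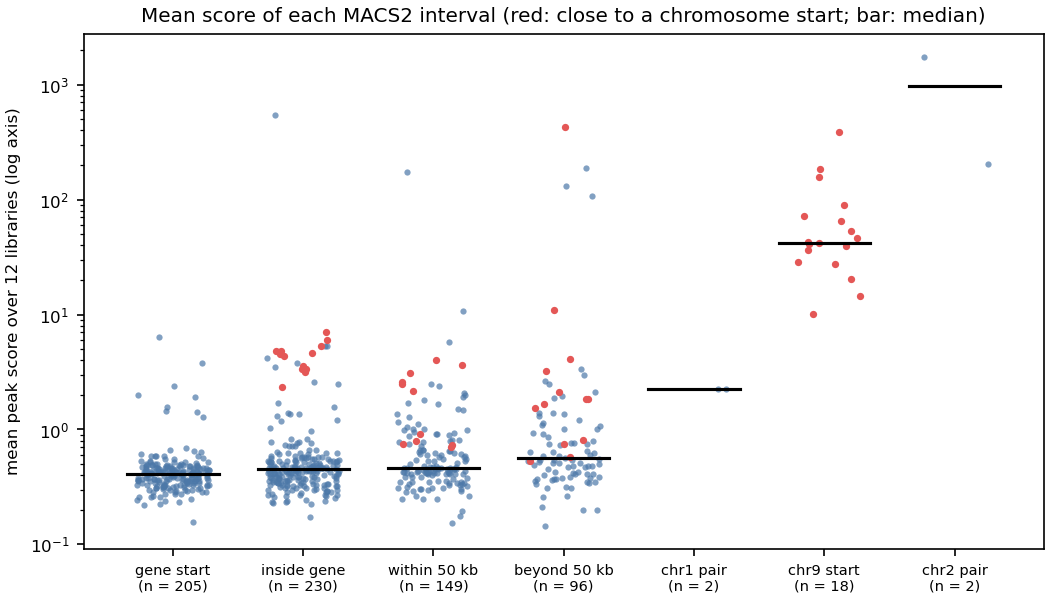
Mean peak score of each of the 702 MACS2 intervals over the 12 libraries (log axis), by position relative to genes and by position group; bars are medians and red points start below 3.5 Mb. Most intervals sit near 0.45, and the scores over 100 lie on a few positions on chromosomes 2, 6, 9, 12 and 14.

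Relative to genes, the set was rich in gene starts. Within 2 kb of a RefSeq transcription start lay 205 intervals (29.2%), against 10.4% of the SEACR intervals, and the shares were 26.8% against 8.36% within 1 kb. A further 230 (32.8%; SEACR 44.9%) lay inside a protein-coding gene, 151 (21.5%; SEACR 23.9%) within 50 kb of one, and 116 (16.5%; SEACR 20.8%) farther away. Among the 680 intervals outside the 3 position groups, median scores were 0.409 at gene starts, 0.451 inside genes, 0.466 within 50 kb and 0.567 beyond it. Intervals at gene starts were therefore more frequent than in the SEACR set and scored lowest within the MACS2 set.

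The chromosome 2 pair was the strongest position. The interval chr2:98666250-98667330 scored 1307 and 1483 in WT vehicle, 1852 and 1528 in WT AA, 1647 and 1838 in WT PGE2, 1512 and 1478 in KO vehicle, 1265 and 1075 in KO AA, and 2051 and 3737 in KO PGE2. Its neighbour chr2:98662242-98662749 scored 145 to 235 in 11 libraries and 368 in KO PGE2 replicate 2. The nearest protein-coding gene, Lrrc4c, is over 1 Mb away. The ranges of WT and KO overlapped at both intervals, and KO PGE2 replicate 2 was the highest library at both. In every library this pair held 49.5% to 53.6% of the summed MACS2 signal.

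The chromosome 9 group was a block of 18 intervals spread over 37.9 kb. Its strongest interval, chr9:3024057-3024853, scored 292 and 334 in WT vehicle, 399 and 337 in WT AA, 363 and 398 in WT PGE2, 336 and 330 in KO vehicle, 285 and 244 in KO AA, and 457 and 853 in KO PGE2. The weakest, chr9:3037211-3037443, scored 5.53 to 12.3 in 11 libraries and 22.7 in KO PGE2 replicate 2. No protein-coding gene lay within 50 kb, and the microRNA gene Mir101c is annotated 440 bp past the block. The genotypes overlapped, and the order of the libraries was close to that of the chromosome 2 pair. The block held 26.6% to 28.7% of the summed signal in the 12 libraries.

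Within the block the intervals moved together. Over the 12 libraries, the SD of an interval's log2 score was 0.41 to 0.50, and relative to the block's median in each library it was 0.03 to 0.17. The share of each interval in the block's summed score separated the genotypes at 4 of 18 intervals (22.2%). It was lower in all 6 KO libraries at chr9:3000286-3001528, at chr9:3030814-3031311 (WT mean 1.71%, KO 1.33%) and at chr9:3034479-3035452, and higher at chr9:3024057-3024853 (27.8% and 28.9%). These shares sum to a fixed total, so they are not independent of each other. They are defined only within the block, so the 22.2% has no counterpart over all intervals, and it was not tested. For genotype, 0 of the 18 scores were called.

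The proportion between the chromosome 2 and chromosome 9 groups also separated the genotypes without overlap. The median score of the chromosome 2 pair was 21.0 to 22.2 times that of the chromosome 9 block in the 6 WT libraries and 23.0 to 23.7 times in the 6 KO libraries, KO PGE2 replicate 2 included (23.0). This ratio was noticed in the data and was not tested. Levels themselves overlapped: the median of the block was 33.1 to 48.8 in WT and 26.0 to 89.3 in KO.

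**Figure D2:**
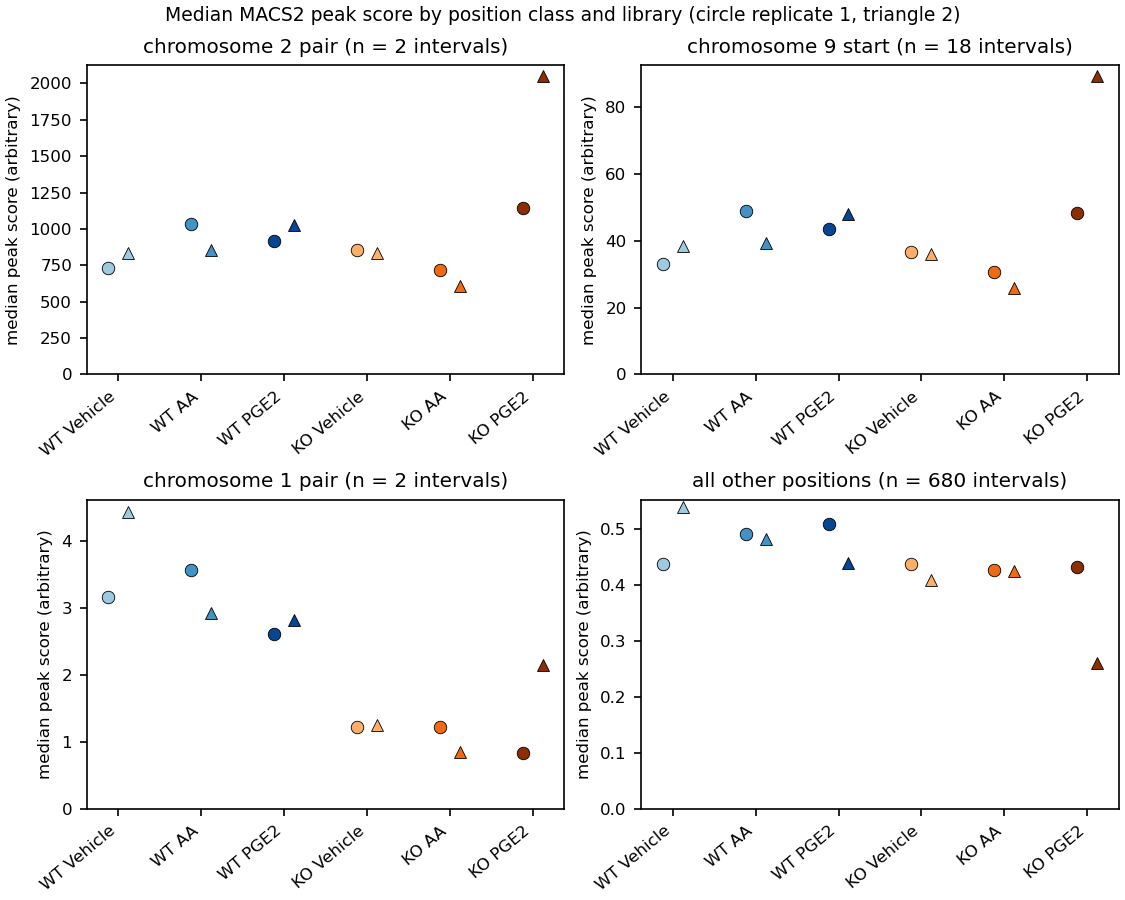
Median peak score (vertical axis, arbitrary unit, from 0) of each position group in each of the 12 libraries; circles are replicate 1 and triangles replicate 2. The chromosome 1 pair is lower in the 6 KO libraries (0.839 to 2.14) than in the 6 WT libraries (2.62 to 4.44), and KO PGE2 replicate 2 is highest on chromosomes 2 and 9 and has the lowest median over the 680 other intervals (0.260).

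The chromosome 1 pair differed by genotype in every library. The intervals chr1:24613319-24613955 and chr1:24614830-24615400 lie on either side of Gm10925, an annotated pseudogene that carries the synonym mt-Atp6, the mitochondrial gene for subunit 6 of ATP synthase. The first interval ends 16 bp before it, a further pseudogene, Gm10222, lies 619 bp away, and the collagen gene Col19a1 is 25397 bp away. At the first interval, the score was 3.02 and 4.68 in WT vehicle, 3.57 and 3.03 in WT AA, 2.44 and 2.91 in WT PGE2, 1.32 and 1.11 in KO vehicle, 1.25 and 0.864 in KO AA, and 0.748 and 1.96 in KO PGE2. At the second, it was 3.33 and 4.21, 3.58 and 2.83, 2.79 and 2.73 in the same WT groups, and 1.11 and 1.40, 1.18 and 0.827, 0.930 and 2.32 in the same KO groups. No KO library reached the lowest WT library at either interval.

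Averaged over the 3 treatments, the 2 intervals were lower in KO by log2 -1.43 ± 0.15 (SE) and -1.35 ± 0.14 (6 against 6 libraries; limma with Benjamini-Hochberg adjustment over all 167173 intervals tested, adjusted p = 1.53e-04 each). WT means were 3.27 ± 0.78 (SD) and 3.24 ± 0.58, and KO means 1.21 ± 0.43 and 1.30 ± 0.54. The 5202 bp SEACR interval that holds both scored 1.93 to 3.08 in WT and 0.660 to 1.31 in KO. Relative to the chromosome 9 block, the pair stood at 0.0589 to 0.115 in WT and at 0.0174 to 0.0397 in KO. Relative to the 680 other intervals it stood at 5.13 to 8.23 in WT and 1.94 to 3.06 in 5 KO libraries, but at 8.24 in KO PGE2 replicate 2, where those other intervals were low. Without trend in the prior, limma gave adjusted p = 0.112 for both intervals, and over all alternatives the adjusted p of the pair ran from 9.41e-19 to 0.112. Whether fewer reads of the mitochondrial genome or a changed nuclear copy underlie the difference cannot be told apart here.

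**Figure D3:**
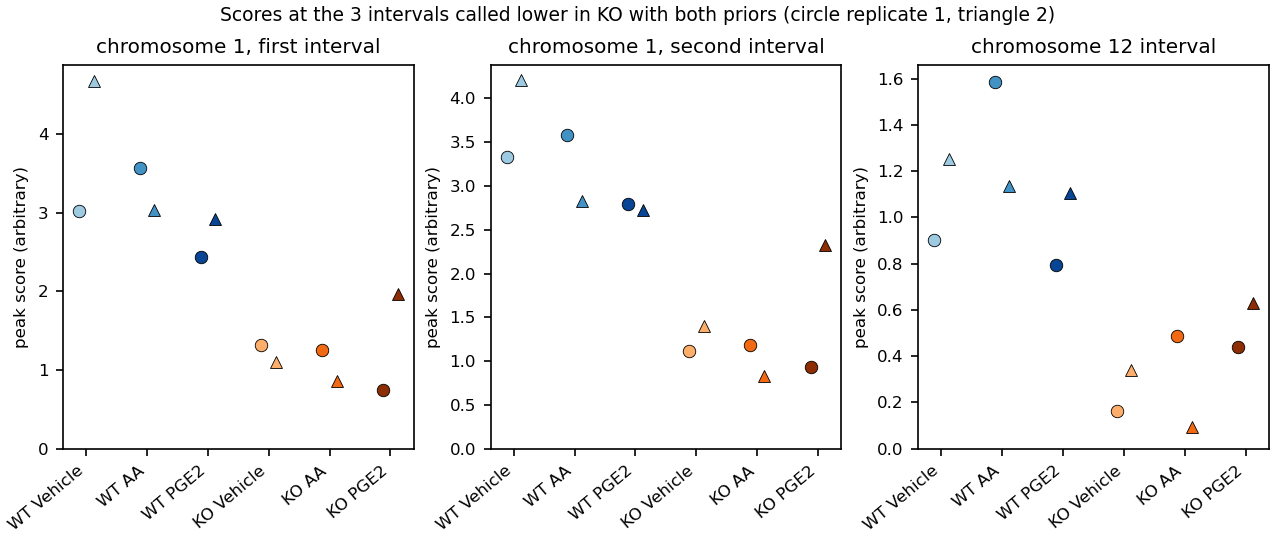
Peak scores (arbitrary unit, from 0) of the 3 intervals called lower in KO under both variance estimates, in each of the 12 libraries; circles are replicate 1 and triangles replicate 2. In the chromosome 12 panel the 6 KO libraries reach at most 0.629 and the WT libraries start at 0.794. In both chromosome 1 panels all KO libraries lie below all WT libraries.

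The other positions with scores over 100 shared their highest library with the chromosome 2 and 9 groups. An interval inside Chl1, a neural cell adhesion gene (chr6:103649096-103649291), had a mean of 539, with 431 to 618 in 11 libraries and 850 in KO PGE2 replicate 2. An interval near the start of chromosome 12 (chr12:3109872-3110091) had a mean of 425, with 238 to 493 in 11 libraries and 917 in KO PGE2 replicate 2. The 3 intervals between chr14:19415723 and chr14:19418914 had means of 131, 188 and 108, and chr9:35305238-35305590 had 175. All 6 were highest in KO PGE2 replicate 2.

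Intervals with intermediate scores varied in this library. The interval chr15:75085527-75087043, 21118 bp from Ly6c2, scored 9.56 to 12.1 in the 12 libraries, with 10.1 in KO PGE2 replicate 2. The 15 intervals in and beside Sfi1, a gene of the centrosome on chromosome 11, had means of 2.35 to 7.10, and the median over them was 3.72 to 4.31 in WT and 3.84 to 5.32 in KO. Their strongest interval, chr11:3140660-3141437, scored lowest in KO PGE2 replicate 2 (4.71, against 6.40 to 8.16 elsewhere). A run of 3 on chromosome 17 reached into Rn18s-rs5, a pseudogene copy of the ribosomal RNA gene, with medians of 1.92 to 3.29 in 11 libraries and 3.32 in KO PGE2 replicate 2. A run of 5 near 9230019H11Rik on chromosome 10 was also highest there, with a median of 2.12 against 0.376 to 0.936 elsewhere, as was the interval chr17:13550732-13553133 (4.82). Closeness to a chromosome start did not always go with a high score in KO PGE2 replicate 2.

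At gene starts, the strongest interval (chr1:183299139-183299577) lay at Aida, whose product binds axin, and scored 6.22 to 7.58 in WT and 5.50 to 6.08 in KO, without overlap. Its genotype difference of log2 -0.25 ± 0.07 did not pass in limma (adjusted p = 0.232). Other strong intervals lay at Ugt1a1, the bilirubin-conjugating enzyme (mean 1.55), and at Hjurp, the chaperone that loads the centromeric histone CENP-A (1.45 and 1.42). These belonged to a run of 5 intervals over 63.7 kb of chromosome 1. The Sprr2a3 start shown above had a mean of 1.28, with 0.892 to 2.02 in WT and 0.803 to 1.19 in KO, and its ranges overlapped.

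For genotype, 34 intervals were called with the variance of the whole table and 3 of them also with the variance within each caller. With limma on log2(score + 0.0580), 34 of 702 (4.84%) passed an adjusted p of 0.05, 5 higher and 29 lower in KO. Among all tested intervals, 0.0485% were called, 0.0132% higher and 0.0353% lower. The median log2 change was -0.20 over the MACS2 intervals and -0.05 over all intervals. Of the 702, 491 were lower in KO. Groups did not overlap at 11 (1.57%; 0.687% over all intervals), 10 of them lower in KO (0.562% of all intervals were lower without overlap). The direction of these counts depends on scaling: with each library centred on the median of its 680 other MACS2 intervals, 44 were called higher and 20 lower, and with quantile normalization 11 and 23. Calls over all 167173 intervals moved too, from 81 as reported to 222 and 89 in these settings. They also moved when single libraries were left out. The count among the MACS2 intervals also depends on single libraries. It rose without either KO PGE2 library, and fell without WT vehicle replicate 2, WT PGE2 replicate 1, KO vehicle replicate 2 or either KO AA library.

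These calls rest on an estimate of spread that was too small for narrow intervals. limma shares a variance between intervals of like level, and the SEACR intervals set it: the shared SD of the MACS2 intervals had a median of 0.156, while their own residual SD had a median of 0.536, against 0.205 for SEACR intervals at the same level. In the WT AA comparison 24.9% of the MACS2 intervals had an unadjusted p under 0.05, against 4.54% of all intervals, and for genotype 43.0% against 8.87%. With the shared variance taken within each caller (shared SD 0.595), these shares were 4.42% against 4.56% and 13.8% against 9.13%. That estimate was added after seeing the data, and with it 3 of the 34 genotype calls passed (0.0443% over all intervals). Calls are therefore reported with whether they passed under both estimates, and only those that did are taken as changed. The log2 changes are the same in both. Each SE is from the whole-table fit, which rests on the smaller shared SD.

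The 3 were the chromosome 1 pair and chr12:97061451-97061785, which lies over 1 Mb from the nearest protein-coding gene, Galc, and was singled out after its values were seen. It scored 0.904 and 1.25 in WT vehicle, 1.58 and 1.14 in WT AA, 0.794 and 1.10 in WT PGE2, 0.164 and 0.342 in KO vehicle, 0.489 and 0.0945 in KO AA, and 0.438 and 0.629 in KO PGE2. All KO libraries were below all WT libraries. It fell by 1.65 on the log2 scale (SE 0.20; limma adjusted p = 9.73e-04, and 1.17e-04 with the variance within each caller). The SEACR interval around it scored 0.382 to 0.710 in WT and 0.0563 to 0.308 in KO. Without trend its adjusted p was 0.141, the highest over the alternatives, which started at 3.54e-07.

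**Figure D4:**
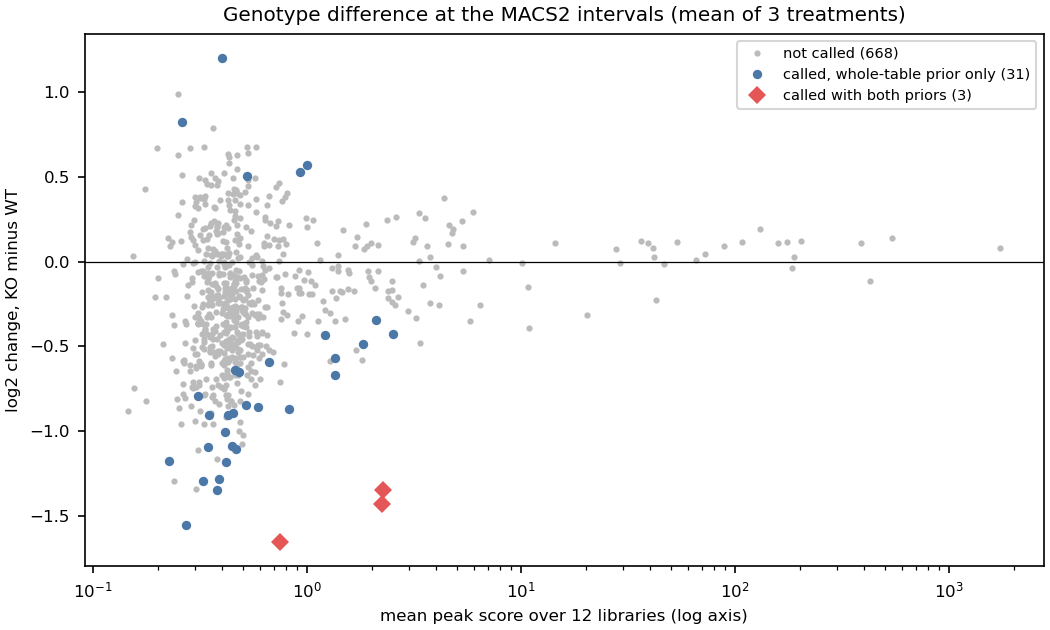
Log2 change between KO and WT (vertical axis, mean of the 3 treatments) against the mean score over the 12 libraries (log axis) for the 702 MACS2 intervals. Grey points were not called, the 31 blue points were called with the shared variance of the whole table only, and the 3 red diamonds with both estimates; no called interval has a mean over 10.

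The other 31 calls passed only with the variance of the whole table, and adjusted p within each caller was at least 0.116. Some of them are named here after their values were seen. At Tamm41, an enzyme of mitochondrial cardiolipin synthesis, the score was 0.313 to 0.744 in WT and 0.137 to 0.309 in KO (log2 -1.10 ± 0.13). At the Coq6 start shown above it was 0.288 to 0.734 in WT and 0.0269 to 0.333 in KO (-1.29 ± 0.16), with an overlap between the genotypes, as at Ccnf. At Ccnf, which encodes cyclin F, it was 0.129 to 0.659 in WT and 0.0614 to 0.134 in KO (-1.18 ± 0.14). All 3 had low scores.

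Further intervals with a lower KO score in that fit lay in Maml3, a Notch coactivator (log2 -1.56 ± 0.20), in Cdk8, the kinase of the Mediator complex (-0.87 ± 0.13), and at Nr1h4, which encodes the bile acid receptor FXR (-0.86 ± 0.13). The 5 with a higher score were near Marchf5, a mitochondrial ubiquitin ligase (1.20 ± 0.20; 0.130 in KO PGE2 replicate 2 and 0.384 to 0.965 in the other KO libraries), at chr4:64497855-64498058 (0.53 ± 0.09; 2.14 in KO PGE2 replicate 2 and 0.774 to 1.21 in the other KO libraries), near Smok2a (0.57 ± 0.10), in Zfp473 (0.51 ± 0.09) and at Nav1 (0.82 ± 0.15). A lower call at chr11:109011650-109012088 lay inside Gm36876, a long noncoding RNA gene (-0.67 ± 0.09, limma adjusted p = 0.00143, and 0.116 within each caller). The nearest protein-coding gene, Axin2, is 60867 bp away. The 29 lower calls lay on 14 chromosomes, with mean scores from 0.225 to 2.51.

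With arachidonic acid, no interval passed under both variance estimates. In WT, 1 of 702 passed in the whole-table fit (0.000598% over all intervals): chr2:50885241-50885440, far from any gene, scored 0.624 and 1.02 with vehicle and 0.207 and 0.212 with AA (log2 -1.68 ± 0.20, limma adjusted p = 0.00505), and 0.391 and 0.251 with vehicle and 0.458 and 0.439 with AA in KO. Its interaction was 2.13 ± 0.29 (limma adjusted p = 0.0322, and 0.9998 within each caller, with 0.000598% called over all intervals in the whole-table fit). With the variance within each caller, limma called 0, with 31 intervals at an unadjusted p under 0.05 in WT (4.56% over all intervals). The whole-table fit had 175 there (4.54% over all intervals). In KO, limma called 0 of 702 (0.0% over all intervals), with 144 under an unadjusted 0.05 (3.76% over all intervals) and 26 with the variance within each caller (3.74%). The smallest p there was near Nfe2l2, the regulator of the oxidative stress response (chr2:75714524-75714804): 0.754 and 0.540 with vehicle and 0.0632 and 0.112 with AA (log2 -2.28, limma adjusted p = 0.0575).

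On chromosomes 2 and 9, AA values went opposite ways in the genotypes without passing. The 18 chromosome 9 intervals were all higher with AA in WT (median log2 0.26) and all lower in KO (-0.35), and the chromosome 2 pair gave 0.23 and -0.34. The chromosome 1 pair was lower with AA in both, by -0.21 and -0.26. No interval of these groups passed the AA interaction, whose median over the chromosome 9 block was -0.61. The 18 move together, so they count as little more than 1 measurement.

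With PGE2 in WT, 1 of 702 passed (0.000598% over all intervals). The interval on the Zfp808 start shown above, a zinc finger gene, scored 0.732 and 0.673 with vehicle and 0.217 and 0.117 with PGE2 (log2 -1.79 ± 0.23, limma adjusted p = 0.0185), and the groups did not overlap. It did not pass with the variance within each caller (adjusted p = 0.795), which called 0, with 32 intervals under an unadjusted 0.05 (5.79% over all intervals). The whole-table fit had 189 there (5.75% over all intervals). The chromosome 9 block had a median log2 change of 0.30, the chromosome 2 pair 0.27 and the chromosome 1 pair -0.46, and none of these passed.

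With PGE2 in KO, 7 of 702 passed, 2 higher and 5 lower. Over all intervals 0.00479% were called, 0.0012% higher and 0.00359% lower. An unadjusted p under 0.05 was found for 223 (8.43% over all intervals), and for 84 with the variance within each caller (8.69%). The count rose without KO PGE2 replicate 1 or either WT AA library. It fell without KO vehicle replicate 2, either WT vehicle library or either KO AA library. The count over all intervals moved the same way in each of these fits. Here the lone library of the arm is assumed to vary like the other groups, which supply the spread. Of the calls, 2 of 4 were higher after centring on library medians, where 5 were called over all intervals. After quantile normalization 1 of 6 was higher (6 over all intervals), and after centring on the other MACS2 intervals 9 of 14 (20 over all intervals). With MACS2 intervals fitted alone, all 19 calls were higher. At Smo, the signal transducer of the Hedgehog pathway, the interval chr6:29747906-29748916 scored 1.09 and 1.01 with vehicle, 1.59 and 1.60 with AA and 1.94 and 1.99 with PGE2 in KO, and 1.66 and 1.40, 1.03 and 1.53, 2.11 and 1.84 in WT. Its PGE2 change in KO was 0.87 ± 0.13 (limma adjusted p = 0.0352; 0.450 within each caller). Near 9230019H11Rik, chr10:3111616-3111924 scored 0.326 and 0.449 with vehicle and 1.13 and 2.12 with PGE2 (1.86 ± 0.24, adjusted p = 0.00818; 0.195 within each caller).

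The 5 lower intervals included the start of Nthl1, a DNA repair glycosylase: 0.494 and 0.846 with vehicle against 0.129 and 0.174 with PGE2 in KO, and 0.188 and 0.304 against 0.439 and 0.443 in WT. Its change in KO was -1.76 ± 0.23 (limma adjusted p = 0.00818, and 0.505 within each caller). Its PGE2 interaction was -2.51 ± 0.32 (limma adjusted p = 0.0150, and 0.727 within each caller, with 0.000598% called over all intervals in the whole-table fit). The others lay in Met, the receptor for hepatocyte growth factor (-1.50 ± 0.23), near Zfp213 (-1.37 ± 0.20), near Sprr2a1 (-0.91 ± 0.14) and at chr8:8225640-8225960 (-1.37 ± 0.20). With the variance within each caller none of the 7 passed, and 3 others, all in the chromosome 9 block and higher, did (0.00419% over all intervals). The median of all intervals was -0.15 in this comparison, and -0.01 after centring on library medians.

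KO PGE2 replicate 2 stood apart from the other KO libraries in the median of each position group. Relative to the mean of KO vehicle, the 18 chromosome 9 intervals were at 2.19 to 2.80 times in replicate 2 (median 2.52) and at a median of 1.35 times in replicate 1. The chromosome 2 pair was at a median of 2.20 and 1.30 times, the chromosome 1 pair at 1.73 and 0.679 times, and the 680 others at 0.656 and 1.02 times. In replicate 2 the MACS2 signal was 16.7% of the SEACR signal, against 4.63% to 8.26% in the other 11 libraries, and the median SEACR score was lowest (0.0941, others 0.112 to 0.122). The part of this library's depth or background in the PGE2 results was not tested. Without it, the median change of the chromosome 9 block went from 0.88 to 0.43, with 18 of 18 higher in both. After quantile normalization it was 0.01 with 9 of 18 higher. For genotype, the block's median was 0.06 with 12 of 18 higher, and -0.08 with 0 of 18 higher without this library.

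**Figure D5:**
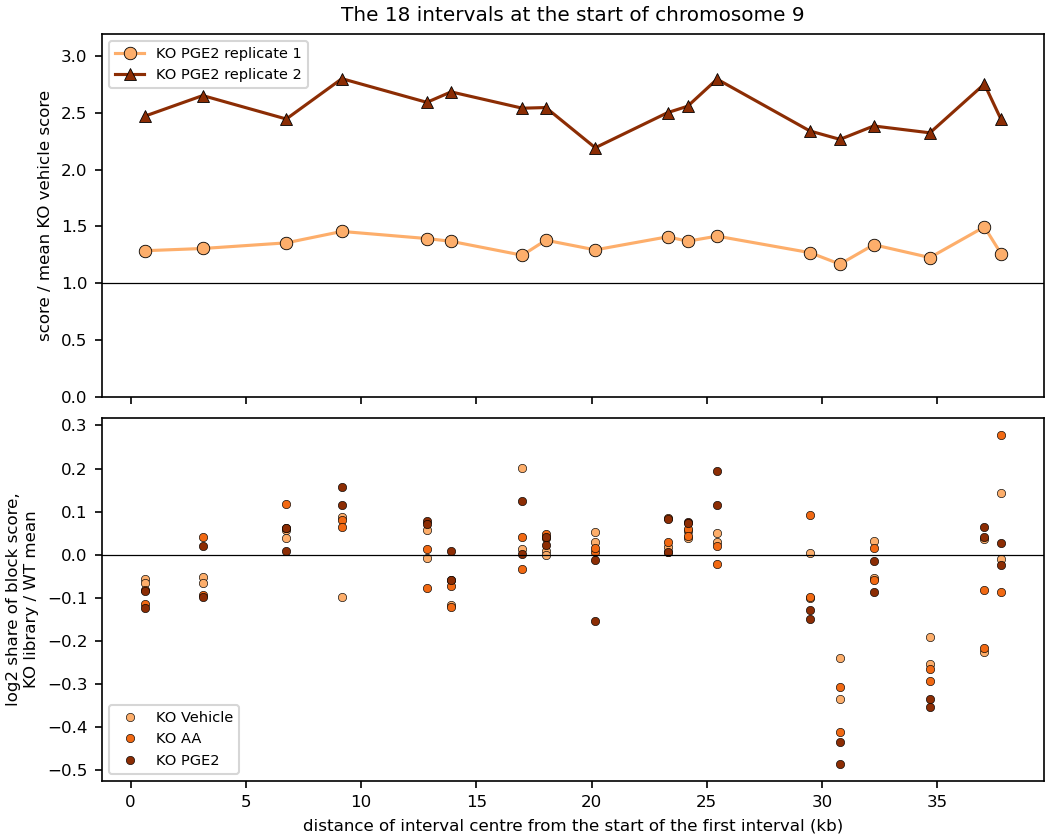
The 18 intervals of the chromosome 9 block by distance of their centre from the start of the block's first interval. The upper panel gives the score of each KO PGE2 library as a multiple of the mean KO vehicle score (median 1.35 in replicate 1 and 2.52 in replicate 2), and the lower panel the log2 ratio of each KO library's share of the block's score to the WT mean share, which is below 0 in all 6 KO libraries at 3 intervals.

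Most genes of the pathway and cell type lists had no MACS2 interval nearby, as was true of protein-coding genes in general. Of 21900 protein-coding genes, 1456 (6.65%) had a MACS2 interval within 50 kb. Lists of 10 to 19 genes are too short to tell 0 from that share, and no list was tested. There were 0 of 17 genes of epithelial identity, 0 of 16 stem cell and Wnt genes such as Lgr5 and Axin2, 0 of 13 prostaglandin receptors and enzymes, and 0 of 16 non-epithelial genes. Of the Hedgehog genes, 2 of 10 had one: Smo (within the gene) and Gli1, a transcription factor of the pathway (18372 bp, in an interval inside Mars1). The others were Msln and S100a6 of 15 fetal-like genes, Pde4d of 19 cAMP and AP-1 genes, Eef2 and Ubb of 16 housekeeping genes, and H3f3b, a histone H3.3 gene, of 13 histone and RNA genes.

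Of these 8 intervals, 6 were lower in KO (median log2 -0.35), as were 491 of all 702 MACS2 intervals and 97628 of the 167173 tested. When all intervals were fitted together, 1 of the 8 passed (0.0485% over all intervals). It lay 4909 bp from H3f3b, at the start of Unk (-1.10 ± 0.18, limma adjusted p = 0.0161, and 0.231 within each caller). With PGE2 in KO, 2 were higher and 6 lower (median -0.48), beside 441 of 702 MACS2 intervals and 110488 of all 167173 that were lower. Smo alone passed. The estimate at the Gli1 interval lay the other way, at -2.06 ± 0.45, and did not pass (limma adjusted p = 0.344). The S100a6 interval, in a fetal-like list, was lower in KO by log2 -1.08 ± 0.26 and did not pass (limma adjusted p = 0.188). The Pde4d interval, in a phosphodiesterase gene that breaks down cAMP, had an estimate of -0.59 ± 0.33 with PGE2 in KO and did not pass.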

How the data were processed

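H3K27ac CUT&RUN was scored in 12 libraries (6 groups of 2). The authors deposited a signal value (peak score) per interval and library; SEACR, MACS2 and the mm10 build are named in the submitters' processing notes. The aligner, settings, score normalization, duplicate and exclusion-list handling and depth: not given in the sources used here. Therefore no counting intervals are given, and coordinates are as deposited. Scores were analysed as log2(score + 0.0580), the pseudocount being the 10th percentile (0.1 quantile) of non-zero scores; intervals above it in at least 2 libraries were kept (167173, with all 702 MACS2 intervals). limma 3.58.1 in R 4.3.3 (lmFit, eBayes with trend, two-sided) fitted 6 groups together, with 6 residual and 15.9 prior degrees of freedom and Benjamini-Hochberg adjustment at 0.05 over 7 comparisons separately. A run on simulated data required only that planted log2 changes were recovered on average, and set no condition on the calls. Genes and transcription starts came from RefSeq GRCm38.p6; overlaps were computed with bedtools 2.31.1. Starts with strand replaced the planned gene ends. Named were the strongest and weakest intervals of each position group, the 10 strongest elsewhere and at gene starts, runs of 3 or more, up to 5 calls by smallest p per comparison and direction (2 where none passed), and list genes. Some were added after their values were seen. The position groups, members and lists were chosen with earlier results of these data known. 1 item of the gene lists is not reported here.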

Additional observations from a re-analysis of the deposited data

Results flagged for a closer look

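In 6 measures, KO PGE2 replicate 2 lay far from the other 5 KO libraries, by a gap that is large against the range of the 6. Its median score was 2.14 on the chromosome 1 pair, 2053 on the chromosome 2 pair, 89.3 on the chromosome 9 block and 0.260 over the 680 other intervals. The ratio of the chromosome 9 block to the other intervals was 343, and the MACS2 signal was 16.7% of the SEACR signal. The 6 KO libraries span 3 treatments, 14 series were examined, and chance marks about 1 in 20. The series are not independent, because the ratio and the signal share are built from the same scores as the medians. The 6 measures therefore describe the same library and do not add up as separate marks.

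The AA change differed between the genotypes at chr2:50885241-50885440 by log2 2.13, and the PGE2 change at the Nthl1 start (chr17:24632896-24633202) by -2.51, both by the interaction term of limma with the variance of the whole table only.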

How the results depend on the processing

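Counts are in the order WT AA, WT PGE2, KO AA, KO PGE2, genotype, AA interaction, PGE2 interaction (1, 1, 0, 7, 34, 1, 1 as reported). With the variance within each caller they were 0, 0, 0, 3, 3, 0 and 0, and without trend 0 in each. With MACS2 intervals fitted alone they were 0, 0, 0, 19 (all higher), 8 (all lower), 0 and 0. Of these, 1 of the 19 and 5 of the 8 were also called in the reported fit. With a pseudocount 4 times larger they were 0, 0, 0, 0, 9, 0 and 0, and 4 times smaller gave 1 in KO AA. Centring on library medians gave 4 in KO PGE2 (2 higher) and 0 in the PGE2 interaction. Quantile normalization gave 1 in KO AA and 4 in the PGE2 interaction. Centring on the other MACS2 intervals, added after seeing the data, gave 7, 7, 2, 14 (9 higher), 64, 6 and 8; it moved the median of all intervals from -0.05 to 0.21 for genotype and from -0.15 to 0.14 in KO PGE2. Leaving out each library, where a lone library is assumed to vary like the other groups, gave 0 to 6, 0 to 4, 0 to 3, 0 to 73, 13 to 111, 0 to 6 and 0 to 28; KO PGE2 went to 73 without KO PGE2 replicate 1 and to 0 without KO vehicle replicate 2, and genotype to 111 without KO PGE2 replicate 1 and to 13 without KO AA replicate 1. Replicate numbers did not pair the libraries (correlations of deviations -0.10 to 0.08), and a replicate block gave 2, 1, 2, 9, 43, 2 and 2. The causes were not tested.

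The chromosome 1 pair and chr12:97061451-97061785 passed in 23 of 24 settings, all but the fit without trend. Over the named intervals, 792 values kept their side of the threshold, 450 no longer passed, 23 newly passed and 0 reversed. The chromosome 9 share was 2.56% of the MACS2 intervals and 5.13% of those above their median score, and the gene start share 35.3% within 5 kb. Depth is unknown, so low scores have no stated counting error.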
